A study of Rattus norvegicus with 6 samples.

Results

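Adipocyte regulators and lipid handling genes were followed in rat bone marrow mesenchymal stem cells (MSCs, a stromal population able to give rise to fat, bone and cartilage) held for 48 h in stiff (18 kPa) or soft (2 kPa) SA hydrogel. The set was named gene by gene and not by a cutoff on measured values, but with earlier results of these data known. It held Pparg, Cebpa, Cebpb, Plin2, Lpl, Fabp4, Fabp5, Cd36, Scd and Adipoq. Of these 10 genes, 9 had a row among the 33589 rows of the gene table, each with 1 row, and Cd36 was not analysed here. The 8 genes other than Adipoq passed the level filter, a mean of at least 1 FPKM (fragments normalized to gene length and to library size) over the 6 libraries. Each gel was represented by 3 polyA RNA libraries. Both groups shared the low-glucose serum medium, the time in gel and a kit made for single-cell RNA input, and the gel stiffness was the labelled difference. The labels do not say whether replicates came from separate cultures or animals, and p-values therefore reflect the spread among these libraries, possibly technical spread.

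Fat cell formation is driven by a cascade of transcription factors in which C/EBP beta acts early and PPAR gamma and C/EBP alpha then maintain each other and switch on the genes of the mature cell. Lipoprotein lipase frees fatty acids from circulating triglyceride, CD36 and fatty acid binding proteins carry them into and through the cell, stearoyl-CoA desaturase makes monounsaturated fatty acids, perilipins coat the stored droplet, and adiponectin is a hormone that fat cells secrete. Bone marrow MSCs are a classical source of fat cells in culture. Several of these proteins, among them PLIN2, LPL, FABP4 and FABP5, are also made by macrophages.

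Recovered reads came to between 14966354 and 16711527 per library. Mitochondrial genes took 2.15% of the reads of soft replicate 1 and between 2.85% and 3.33% elsewhere. Over all 12713 tested genes limma called 182 (1.43%), 128 higher and 54 lower in stiff gel, and the median log2 fold change was 0.00. The split of calls was 88 higher and 68 lower when each library was scaled to the same FPKM sum, and 103 and 68 after quantile normalization. Levels of MSC markers differed widely, from Lepr (the leptin receptor), under the level filter at 0.143 FPKM in stiff and 0.101 FPKM in soft gel, and Nt5e (CD73), at 16.1 and 14.4 FPKM in stiff and soft gel, to the collagens, with Col1a1 (collagen I) at 3579 ± 314 FPKM in stiff and 3061 ± 373 FPKM in soft gel (SD, n = 3 each), and Col1a2 at 693.8 ± 291.5 and 802.6 ± 418.0 FPKM in stiff and soft gel. None of 11 tested stromal markers passed limma's test (unadjusted p under 0.05 in 1 of them, 0 called by voom on recovered reads). Counts of unadjusted p under 0.05, here and below, are given without their share over all genes and are not read as an excess.

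Pparg, Cebpa and Cebpb passed the level filter, as did 25 of 29 further fat lineage regulators with a row. By contrast, several products that define a mature fat cell were at or near 0 reads. Adipoq had 5, 7 and 2 reads in the stiff libraries and 1, 10 and 5 reads in the soft ones, that is 0.0586 to 0.212 FPKM in stiff and 0.0292 to 0.299 FPKM in soft gel. The library values of both groups overlapped and lay around the 0.0876 to 0.0988 FPKM that 3 reads would give, so no fold change was computed. Lep (leptin) and Adig (adipogenin) had 0 reads in all 6 libraries, which allows up to 0.0612 and 0.829 FPKM at 3 reads per library. Cidec, which enlarges fat droplets in adipocytes, lay between 0.0284 and 0.182 FPKM. Plin1, the perilipin typical of fat cells, was measurable but low, at 1.80 ± 0.230 FPKM in stiff and 2.02 ± 0.166 FPKM in soft gel. Of 15 listed mature fat cell markers with a row, 8 passed the level filter, among them Gpd1, Lipe, Cidea and Retn. The most abundant was Cfd (adipsin), a secreted protease of the complement system that fat cells make in quantity. It was at 36.7 ± 5.36 FPKM in stiff and 43.6 ± 3.71 FPKM in soft gel (log2 fold change -0.25, limma adjusted p = 0.360). Limits set by 3 reads cover counting error only.

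Levels per length spanned a wide range and fell into an order. Cebpb led with a mean of 342 FPKM over the 6 libraries, followed by Fabp5 at 106 FPKM, Plin2 at 104 FPKM, Lpl at 66.6 FPKM, Cebpa at 36.9 FPKM, Fabp4 at 33.0 FPKM, Pparg at 3.92 FPKM, Scd at 3.25 FPKM and Adipoq at 0.152 FPKM. Among all rows of the table Cebpb ranked 184 by level and Pparg 9617. The ranges over libraries of neighbours in this order overlapped for Fabp5 with Plin2, for Cebpa with Fabp4 and for Pparg with Scd, while the other neighbours were parted in all 6 libraries. Fabp5 and Plin2 changed places between the gels. Fabp5 was above Plin2 in 3 of 3 stiff libraries and in 0 of 3 soft libraries.

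**Figure D1:**
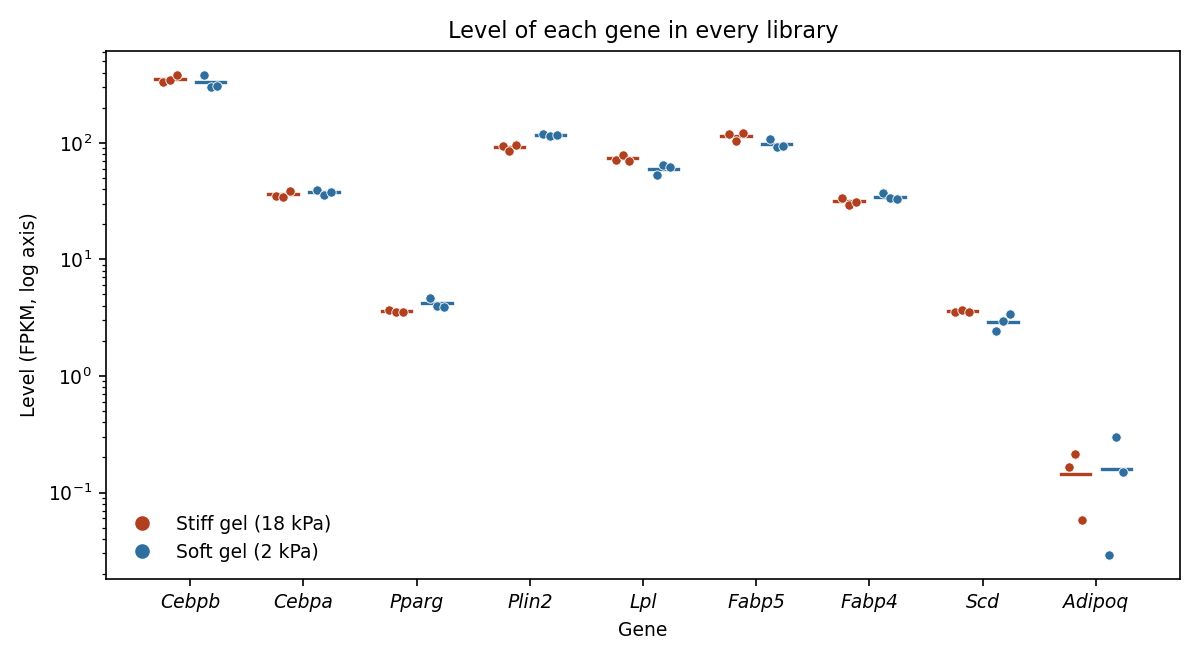
Level (FPKM, log axis) of the 9 genes with a row in each of 3 stiff (left of each pair) and 3 soft libraries; points are libraries and bars are group means. The levels run from Cebpb, at 301 to 384 FPKM, to Adipoq, at 0.0292 to 0.299 FPKM, and the stiff points lie below all soft points for Plin2 and Pparg and above them for Lpl and Scd.

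Between stiff and soft gel 1 of the 8 tested genes passed the test. Plin2, which coats lipid droplets in most cell types, fell to 92.1 ± 5.86 FPKM in stiff gel, against 117 ± 2.98 FPKM in soft gel (SD, n = 3 each). None of the tested genes passed in the other direction. The share called, 1 of 8, is a single gene and is read beside the 1.43% called over all genes (0.425% lower and 1.01% higher in stiff gel). The median log2 fold change of the 8 was 0.02, with 4 above and 4 below 0, and it was -0.03 at equal library sums and -0.02 after quantile normalization, with the same split. The stiff libraries lay wholly above the soft ones for Lpl and Scd and wholly below them for Plin2 and Pparg, 4 of 8 genes, where 22.6% of all tested genes were parted in this way in either direction.

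**Figure D2:**
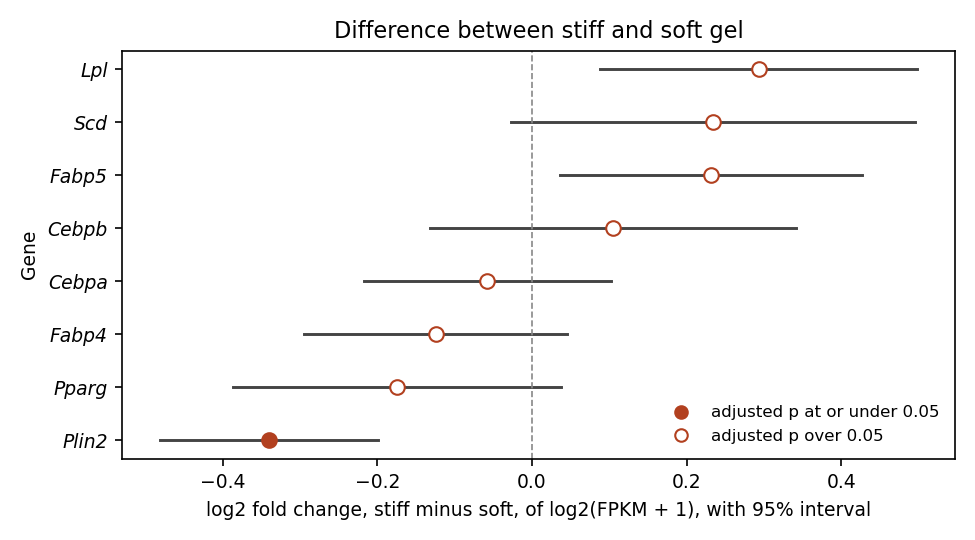
Log2 fold change, stiff minus soft, of log2(FPKM + 1) for the 8 tested genes, with 95% intervals from limma; the filled point passed an adjusted p of 0.05. Plin2 at -0.34 is the filled point, and the intervals of Lpl (0.09 to 0.50) and Fabp5 (0.04 to 0.43) also lie off 0 without passing the adjusted threshold.

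Plin2 (ENSRNOG00000007060) lies on chromosome 5 from 104984414 to 105010857 on the minus strand, as the table gives positions without stating a build. In the stiff libraries it stood at 94.8, 85.4 and 96.1 FPKM, from 2627, 2567 and 2993 reads. In the soft libraries it stood at 119, 114 and 117 FPKM, from 3728, 3459 and 3551 reads. Every stiff library was below every soft one, and stiff replicate 2 was the lowest of the 6. The ratio of means was 0.789 and the log2 fold change -0.34 (SE 0.0600, 95% interval -0.48 to -0.20, limma adjusted p = 0.0472). The call ended when any library was left out, with adjusted p between 0.0869 and 0.192 and log2 fold changes between -0.37 and -0.29. It also ended without the level filter, at an adjusted p of 0.0897 in limma, and without the variance trend, at 0.102.

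The Plin2 start region is shown because Plin2 is the gene that passed the test. RefSeq places 2 starts of Plin2 on the minus strand of chromosome 5 in build GRCr8, and promoter entries, each 250 bases before and 50 after a start, matched 6 of the 9 genes by symbol. Capitals mark an E-box (CACGTG, which reads the same on both strands and is bound by MYC and MITF family factors, among others) and a GC box (GGGCGG, searched on both strands), and the sequences read 5′ to 3′ on the gene's strand.
Plin2 start at chr5:106228969-106229268: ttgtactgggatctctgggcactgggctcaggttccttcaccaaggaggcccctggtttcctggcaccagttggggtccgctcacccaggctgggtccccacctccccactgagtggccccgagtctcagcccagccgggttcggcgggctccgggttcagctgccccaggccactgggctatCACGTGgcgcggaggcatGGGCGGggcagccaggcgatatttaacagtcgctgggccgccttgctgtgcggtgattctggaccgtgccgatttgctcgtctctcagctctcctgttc
Plin2 start at chr5:106228488-106228787: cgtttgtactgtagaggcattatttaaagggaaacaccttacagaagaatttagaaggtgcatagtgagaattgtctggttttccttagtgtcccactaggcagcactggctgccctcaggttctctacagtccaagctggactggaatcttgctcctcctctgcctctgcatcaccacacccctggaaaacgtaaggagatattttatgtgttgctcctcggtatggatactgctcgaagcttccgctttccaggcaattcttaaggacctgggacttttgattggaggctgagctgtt
In the first of these windows the E-box begins 67 bases and the GC box 49 bases before the start, and the second window holds neither. An E-box occurred in 6.42% and a GC box in 33.1% of 33469 RefSeq promoter windows of the same length. The PPAR response element, searched on both strands as a direct repeat of AGGTCA with 1 base between the copies, occurred in 0.0538% of all windows and in none of the 8 windows of these genes, which says only that these letters are not there. These matches are descriptions of sequence, and the gene table does not tell the starts apart.

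Other droplet proteins were compared with Plin2. Plin3, the perilipin that moves between cytosol and droplet, was at 62.1 ± 1.63 FPKM in stiff and 65.0 ± 2.49 FPKM in soft gel (log2 fold change -0.07, limma adjusted p = 0.605). The ratio of Plin2 to Plin3 within a library, chosen after the values were seen and therefore given without a test, was 1.53, 1.41 and 1.51 in stiff gel and 1.77, 1.74 and 1.88 in soft gel, so the groups did not overlap. Plin4 and Plin5 lay under the level filter. Hilpda, a small droplet protein that inhibits the triglyceride lipase ATGL, was at 57.4, 58.5 and 64.7 FPKM in stiff gel and 79.7, 70.9 and 70.1 FPKM in soft gel. With a gene length of 255 bases, these levels rested on 218 to 276 reads in stiff and 291 to 341 reads in soft libraries. All 3 stiff libraries were below all 3 soft ones, but the log2 fold change of -0.28 had a limma adjusted p of 0.130. None of 11 tested genes of the droplet list, which leaves Plin2 out, passed limma's test (unadjusted p under 0.05 in 1, voom calls 0), and their median was -0.02.

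Several markers of macrophages, which also make PLIN2, were measured in these libraries, and more of those tested were lower than higher in stiff gel. Another 5 with a row, C1qa, C1qb, C1qc, Cd163 and Cx3cr1, lay under the level filter. Of 14 tested macrophage markers limma called 2 lower and 1 higher in stiff gel, beside the 1.43% that limma called over all genes. Limma's unadjusted p was under 0.05 in 6, a count given without its share over all genes. Voom called 326 of all 12713 tested genes and 4 of these markers. Their median log2 fold change was -0.11, with 4 above and 10 below 0 (2 and 12 at equal library sums, with a median of -0.15). The stiff libraries lay wholly below the soft ones for 5 of the tested markers and wholly above for 1. Over all tested genes 22.6% were parted in either direction. Cd68, a lysosomal membrane protein, was at 27.7 ± 1.52 FPKM in stiff and 40.4 ± 3.47 FPKM in soft gel (log2 fold change -0.53, limma adjusted p = 0.0246), and Cd53, a leukocyte tetraspanin, at 8.20 ± 0.439 and 12.6 ± 1.15 FPKM in stiff and soft gel (-0.56, limma adjusted p = 0.0271). Adgre1, which encodes the macrophage surface protein F4/80, rose to 84.9 ± 2.24 FPKM in stiff gel, against 69.0 ± 1.85 FPKM in soft gel (0.30, limma adjusted p = 0.0404). Lyz2 (lysozyme), the further gene with voom's call, was at 119 ± 8.38 FPKM in stiff and 149 ± 3.51 FPKM in soft gel (limma adjusted p = 0.0606). Leaving out any library ended the Adgre1 call, and leaving out any but soft replicate 1 ended those of Cd68 and Cd53. All 3 calls also ended without the level filter (limma adjusted p from 0.0522 to 0.0705), and those of Cd68 and Adgre1 ended without the variance trend (0.0535 and 0.0961). Scaling to equal library sums or by quantiles ended the Adgre1 call as well (limma adjusted p = 0.0752 and 0.0870). Ptprc, the pan-leukocyte phosphatase CD45, was at 2.50 ± 0.269 and 2.79 ± 0.563 FPKM, and Csf1r, the macrophage growth factor receptor, at 4.87 ± 0.316 and 4.81 ± 0.222 FPKM in stiff and soft gel. FPKM summed over the 19 markers with a row ran from 402 to 431 in stiff and from 456 to 462 in soft libraries. That sum was made up mostly of Lyz2, lower in stiff gel, Adgre1, higher in stiff gel, and Cd14. Cd14 was at 60.5 and 59.6 FPKM in stiff and soft gel, and Cx3cr1 was at 0 reads in all 6 libraries. In bulk RNA fewer cells of a type and less RNA per cell cannot be told apart, and the part of these cells in the Plin2 difference was not tested.

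**Figure D3:**
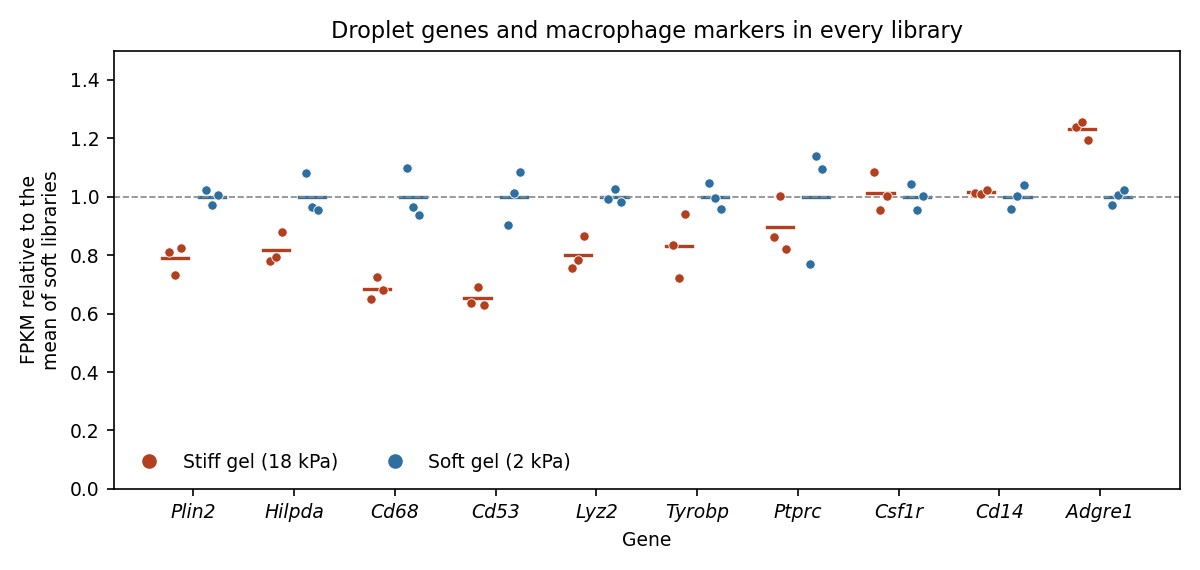
FPKM of Plin2, Hilpda and 8 macrophage markers in each library, divided by the mean of the 3 soft libraries of that gene; points are libraries, bars are group means, and stiff libraries stand left of soft ones. Plin2, Hilpda, Cd68, Cd53, Lyz2 and Tyrobp lie below 1 in all 3 stiff libraries, Adgre1 lies above 1 in all 3, and Csf1r and Cd14 lie near 1 in both gels.

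The 5 tested genes whose log2(FPKM + 1) followed Plin2 most closely over the 6 libraries were Hk3, Fam71e1, Eepd1, Rnf149 and Tnfsf13, with Pearson correlations from 0.987 to 0.997. Hk3, a hexokinase known from myeloid cells, was at 4.46 ± 0.425 FPKM in stiff and 6.53 ± 0.404 FPKM in soft gel. Rnf149, a RING finger ubiquitin ligase, was at 93.5 ± 2.60 FPKM in stiff and 108 ± 3.14 FPKM in soft gel. None of the 5 passed limma's adjusted threshold (adjusted p from 0.0615 to 0.140). The 6 points share the group difference, and 308 of the 12713 tested genes had a correlation over 0.9.

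Among the transcription factors, none of the 3 passed limma's test (unadjusted p under 0.05 in 0, voom calls 0). Cebpb (ENSRNOG00000057347, chromosome 3) was at 335, 345 and 382 FPKM in stiff gel and 384, 301 and 307 FPKM in soft gel. The groups overlapped, because soft replicate 1 was the highest of the 6 libraries. Its log2 fold change was 0.10 (95% interval -0.13 to 0.34, limma adjusted p = 0.672), and 0.22 without soft replicate 1, where the adjusted p was 0.202. It was 0.04 to 0.06 without stiff replicate 3, soft replicate 2 or soft replicate 3 and at equal library sums or after quantile normalization, and 0.17 with array weights. Cebpa (ENSRNOG00000010918, chromosome 1) was at 35.1, 34.4 and 38.8 FPKM in stiff gel and 39.4, 35.7 and 37.6 FPKM in soft gel, with overlapping groups and a log2 fold change of -0.06 (95% interval -0.22 to 0.10, limma adjusted p = 0.743). Without 1 library it ranged from -0.11 (stiff replicate 3) to -0.02 (stiff replicate 2 or soft replicate 1), with -0.04 without stiff replicate 1 and -0.09 without soft replicate 2, and it was -0.11 at equal library sums.

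Pparg (ENSRNOG00000008839, chromosome 4) was at 3.72, 3.56 and 3.57 FPKM in stiff gel, from 127 to 137 reads, and at 4.70, 4.02 and 3.94 FPKM in soft gel, from 147 to 181 reads. All stiff libraries lay below all soft ones, and soft replicate 1 was the highest. The log2 fold change of -0.17 did not pass (95% interval -0.39 to 0.04, limma adjusted p = 0.415) and was -0.11 without soft replicate 1 and with array weights, and read counts of this size leave little precision. Among the RXR partners with which PPAR gamma binds DNA, Rxra was more abundant per length than Pparg and Rxrg lay under the level filter. Rxra was at 29.9 ± 0.864 FPKM in stiff and 33.2 ± 1.83 FPKM in soft gel (log2 fold change -0.14, limma adjusted p = 0.315), and Ppard, the related receptor PPAR delta, at 14.9 ± 0.686 and 15.9 ± 1.53 FPKM in stiff and soft gel. All 5 tested receptors of the PPAR and RXR families had log2 fold changes below 0, with a median of -0.15, and none passed limma's test (unadjusted p under 0.05 in 1, voom calls 0). The third C/EBP of the early cascade, Cebpd, was at 188 ± 16.4 FPKM in stiff and 155 ± 19.6 FPKM in soft gel (0.28, limma adjusted p = 0.254), with overlapping libraries.

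Of the wider list of adipogenic regulators none of 25 tested genes passed limma's test (unadjusted p under 0.05 in 6, voom calls 1). The count of 6 stands without its share over all genes. Their median log2 fold change was -0.12, with 7 above and 18 below 0, against 50.4% of all tested genes above 0. Nr1h2, the oxysterol receptor LXR beta, was at 43.7 ± 1.25 FPKM in stiff and 43.9 ± 1.95 FPKM in soft gel. The gene with voom's call was Klf2, a zinc finger factor that restrains Pparg in mouse preadipocytes and is named here after its values were seen. It was at 15.6, 15.4 and 19.3 FPKM in stiff gel and 12.1, 8.73 and 9.49 FPKM in soft gel, with a log2 fold change of 0.68 (SE 0.131) and a limma adjusted p of 0.0609. Klf2 passed in 4 of 16 alternative fits. These were voom, array weights, a mean of at least 5 FPKM, and the fit without soft replicate 1 (limma adjusted p = 0.0305).

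Lpl, the lipase that releases fatty acids from lipoproteins, had the highest log2 fold change of the 8 tested genes. Lpl (ENSRNOG00000012181, chromosome 16) was at 71.1, 78.9 and 70.2 FPKM in stiff gel, from 3888, 4680 and 4316 reads, and at 52.9, 64.9 and 61.9 FPKM in soft gel, from 3258, 3901 and 3695 reads. Every stiff library was above every soft one, and soft replicate 1 was the lowest. The ratio of means was 1.23 and the log2 fold change 0.29 (SE 0.0874, 95% interval 0.09 to 0.50), which did not pass over all genes (limma adjusted p = 0.184). It passed in none of 16 alternative fits, and was 0.21 without soft replicate 1.

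Angptl4, a secreted inhibitor of lipoprotein lipase and a PPAR target, was at 183 ± 5.77 FPKM in stiff and 184 ± 5.24 FPKM in soft gel, a log2 fold change of -0.00. The ratio of Lpl to Angptl4 within a library was 0.401, 0.428 and 0.372 in stiff gel and 0.279, 0.363 and 0.336 in soft gel. This ratio too was chosen after the values were seen, and the groups did not overlap. Gpihbp1, which anchors the lipase on capillary endothelium, had 0 reads in all 6 libraries, which allows up to 0.246 FPKM at 3 reads per library.

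In the list of fatty acid uptake and activation 1 of 13 tested genes rose and none fell, beside the 1.43% called over all genes. The median of the list was -0.00 (-0.05 at equal library sums). The gene that rose was Cav1, the caveolin that shapes membrane invaginations and takes part in fatty acid uptake. It was at 72.0, 80.2 and 72.4 FPKM in stiff gel and 47.4, 58.0 and 53.9 FPKM in soft gel. Its log2 fold change was 0.49 (SE 0.0843, limma adjusted p = 0.0443). It passed in none of the 6 fits that left out 1 library (adjusted p from 0.0533 to 0.155), and it missed the threshold after scaling to equal library sums (0.0631) or by quantiles (0.0791), without the level filter (0.104) and without the variance trend (0.0854).

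Fabp5 and Fabp4 encode small carriers that hold fatty acids in the cytosol, Fabp4 being the form best known from fat cells and Fabp5 the more widely expressed form. Fabp5 (ENSRNOG00000049075) was at 119, 104 and 121 FPKM in stiff gel and 107, 91.3 and 94.5 FPKM in soft gel. Its groups overlapped through soft replicate 1, and the log2 fold change was 0.23 (SE 0.0834, 95% interval 0.04 to 0.43, limma adjusted p = 0.254). Fabp4 (ENSRNOG00000010805) was at 33.8, 29.5 and 31.3 FPKM in stiff gel and 37.0, 33.4 and 33.1 FPKM in soft gel, with overlapping groups and a log2 fold change of -0.12 (SE 0.0727, limma adjusted p = 0.469), which was -0.08 without soft replicate 1 or stiff replicate 2 and -0.05 with array weights. Neither passed, and their estimates had opposite signs.

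The ratio of the carriers was parted between the gels, which neither level was alone. The ratio of Fabp5 to Fabp4, chosen after the values were seen, was 3.51, 3.54 and 3.87 in stiff gel and 2.91, 2.73 and 2.86 in soft gel, with no overlap. It does not depend on the scaling of a library. With 3 against 3 libraries an exact two-sided permutation test cannot go below 0.1, and none was made. The ratio of Plin2 to Fabp5, also chosen after the values were seen, was 0.798, 0.817 and 0.793 in stiff gel and 1.11, 1.24 and 1.24 in soft gel. That of Cebpb to Cebpa overlapped, at 9.54 to 10.0 in stiff and 8.16 to 9.73 in soft gel. How often the ratio of any 2 genes is parted in this way was not computed.

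**Figure D4:**
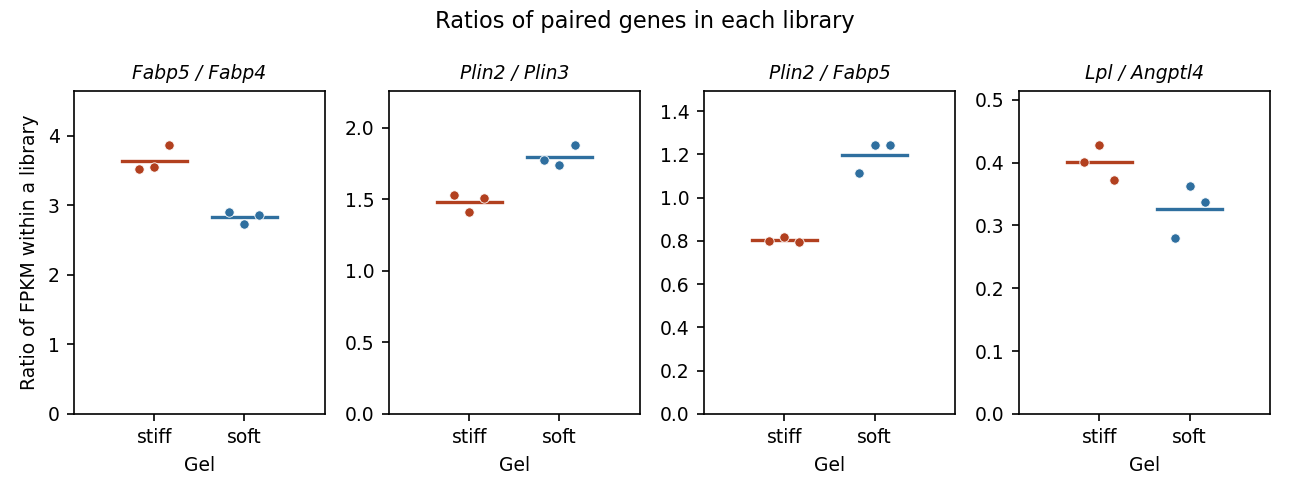
Ratios of FPKM within each library for 4 gene pairs, with 3 stiff libraries left and 3 soft libraries right; points are libraries, bars are group means, and each axis starts at 0. The 4 pairs were chosen after the values were seen, and a pair with overlapping groups, Cebpb to Cebpa, is not drawn. In all 4 panels the groups are parted, with Fabp5 to Fabp4 at 3.51 to 3.87 in stiff and 2.73 to 2.91 in soft gel.

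Fabp4 and Fabp5 lie 184.35 kb apart on chromosome 2 of the table's coordinates. Fabp9 and Pmp2, further fatty acid binding protein genes, lie between them, and the highest FPKM of any of the 7 rows in that interval was 0. Of 14 genes listed for the carrier family 5 had 0 reads in all libraries. Fabp3, the carrier best known from heart, was the next most abundant fatty acid binding protein at 18.6 ± 1.01 FPKM in stiff and 17.8 ± 2.00 FPKM in soft gel. Endothelial cells also make FABP4, and Cdh5 (VE-cadherin) was at 0 to 0.0307 FPKM and Cldn5 at 0 reads in these libraries. The other endothelial markers that were tested, Egfl7 at 7.62 FPKM in stiff and 5.97 FPKM in soft gel and Esam at 2.71 FPKM in stiff and 3.39 FPKM in soft gel, did not pass limma's test (unadjusted p under 0.05 in 1, voom calls 0). Copies of Fabp5 in the genome can share reads with it, and the sources used here do not say how such reads were treated.

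Scd, the rat gene also called Scd1, encodes a stearoyl-CoA desaturase. Scd (ENSRNOG00000013552, chromosome 1) was at 3.56, 3.65 and 3.54 FPKM in stiff gel and 2.42, 2.95 and 3.38 FPKM in soft gel, from 182 to 265 reads per library. The stiff libraries were all above the soft ones and closer together, and the log2 fold change was 0.23 (95% interval -0.03 to 0.49, limma adjusted p = 0.376). It was 0.14 without soft replicate 1 and 0.12 with array weights. The bulk of desaturase RNA came from Scd2, at 297 ± 9.80 FPKM in stiff and 317 ± 9.16 FPKM in soft gel (-0.10, limma adjusted p = 0.401). Scd2 exceeded Scd 81.5- to 84.4-fold in stiff and 96.0- to 127-fold in soft libraries. The Scd value is uncertain, since a small share of Scd2 reads placed on its paralog would be of the size of the whole Scd signal.

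Of 11 tested enzymes of fatty acid synthesis and desaturation none passed limma's test (unadjusted p under 0.05 in 3, voom calls 0), and the median was 0.09, with 8 above 0. Elovl5, which lengthens polyunsaturated fatty acids, was at 52.0 ± 0.310 FPKM in stiff and 47.8 ± 2.71 FPKM in soft gel. Fads2, the delta-6 desaturase, was at 23.7, 20.7 and 23.6 FPKM in stiff gel and 18.0, 15.2 and 17.7 FPKM in soft gel. Fads3, a further gene of the family, was at 34.5, 34.3 and 33.5 FPKM in stiff gel and 29.3, 24.9 and 25.3 FPKM in soft gel. Both were named after their values were seen, and both were parted between the gels without passing, with log2 fold changes of 0.40 and 0.36 and limma adjusted p of 0.0880 and 0.0712. Of 16 alternative fits, Fads2 passed in 1, with array weights. Fads3 passed in 2, with array weights and without soft replicate 1 (limma adjusted p = 0.0212).

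For storage and oxidation of fatty acids no gene passed. None of 16 tested genes of triglyceride synthesis and lipolysis passed limma's test (unadjusted p under 0.05 in 1, voom calls 0), with a median of -0.03. Dgat1, which makes the last bond of triglyceride, was at 30.1 ± 1.28 FPKM in stiff and 31.8 ± 2.13 FPKM in soft gel, and Agpat1, an acyltransferase of the same route, at 29.8 ± 1.20 and 29.2 ± 2.50 FPKM in stiff and soft gel. Among 20 tested genes of fatty acid oxidation none passed (unadjusted p under 0.05 in 1, voom calls 0), and the median was -0.01. The subunits of the mitochondrial trifunctional protein, Hadha and Hadhb, were at 87.5 ± 3.14 and 89.2 ± 4.54 FPKM in stiff gel and 89.2 ± 1.73 and 80.5 ± 9.34 FPKM in soft gel. Cpt1a, the gatekeeper of mitochondrial fatty acid entry, was named after its values were seen, at 32.6, 32.2 and 32.4 FPKM in stiff gel and 37.2, 37.9 and 37.5 FPKM in soft gel. Its groups did not overlap and its log2 fold change was -0.21 (limma adjusted p = 0.101).

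None of 8 tested markers of mature fat cells passed limma's test (unadjusted p under 0.05 in 0, voom calls 0). Their median was -0.16, with 1 above and 7 below 0, and the FPKM summed over the 15 genes with a row ran from 78.7 to 92.4 in stiff and from 94.2 to 102 in soft libraries, a sum made up mostly of Cfd and Adipor2. Adipor2, an adiponectin receptor that many tissues express, was at 35.2 ± 1.47 and 36.5 ± 0.951 FPKM in stiff and soft gel. Over all lists on fat cells and lipid handling, the set itself left out, 109 of 150 listed genes were tested. Of these 1 rose and none fell (unadjusted p under 0.05 in 15, voom calls 2). The count of 15 is given without its share over all genes and is not read as an excess. The share called was 0.917% and the share with parted groups 24.8%, next to 1.43% and 22.6% over all genes.

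**Figure D5:**
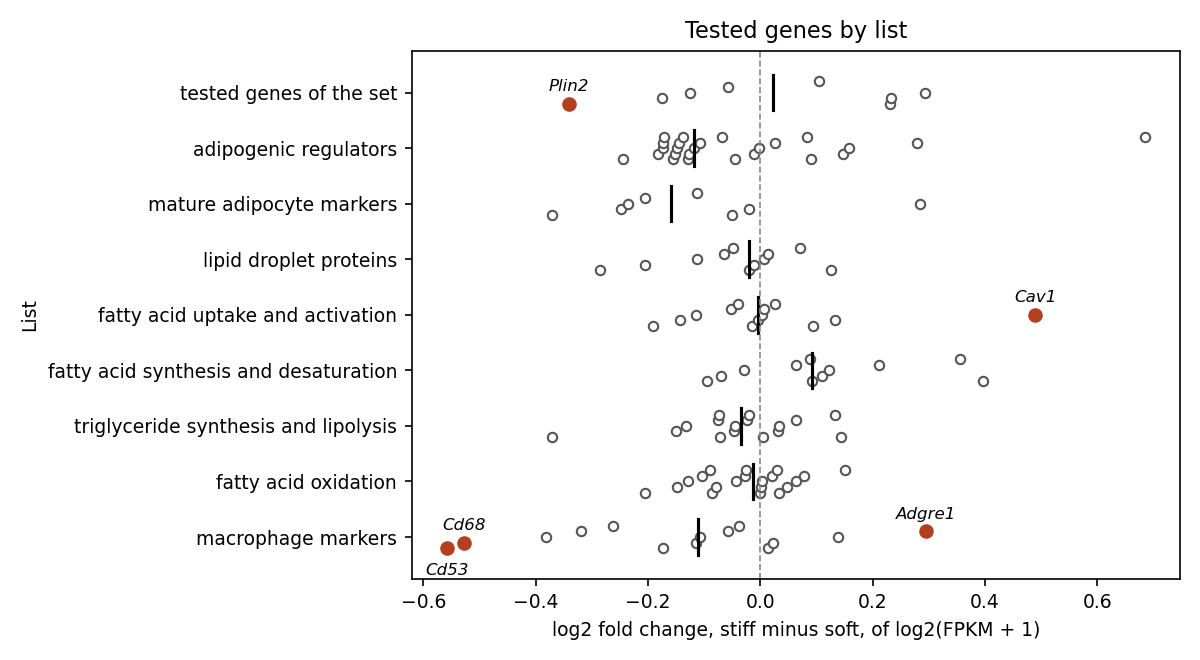
Log2 fold change, stiff minus soft, of log2(FPKM + 1) for each tested gene by list; open points did not pass and filled, named points passed limma's adjusted p of 0.05, the black bar is the median of a list, and points are spread vertically only for legibility. The filled points are Plin2, Cav1, Cd68, Cd53 and Adgre1, and the medians of the lists lie between -0.16 and 0.09.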

How the data were processed

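PolyA RNA of 6 libraries, 3 per gel, was analysed from 1 gene table. Its FPKM were made by the authors; per the submitters' processing notes, Bowtie 0.12.9, Cufflinks 2.1.1 and HTSeq were used, with builds mm10 and GRCm38 of mouse, whereas the deposited table has rat Ensembl identifiers and states no build. Multiplied by gene length, 100% of the FPKM were whole multiples (within 0.0001) of a step per library, so reads were recovered for depth and for voom only. No 2 libraries of a group agreed within sampling noise (chi-square per degree of freedom 3.76 or more). Soft replicate 1 stood furthest off, at 18.0 and 14.3 against soft replicates 2 and 3. The other pairs within a group lay between 3.76 and 9.07.

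Genes averaging 1 FPKM or more were tested as log2(FPKM + 1) in limma 3.58.1 (R 4.3.3), with group as the term, a variance trend, two-sided tests and Benjamini-Hochberg adjustment over all tested genes at 0.05. The log scale understates changes of low genes. Calculations were tested on simulated data.

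The genes and lists were chosen with earlier results of these data known. Named genes are the set, up to 4 called or the 2 most abundant genes of a list, and family leaders. Defining markers and the 5 genes most correlated with Plin2 are also named. Others, among them Angptl4, Gpihbp1, Cd14, Lyz2, Cldn5, Lepr and Nt5e, were named outside these rules, and only some of them are marked. Cd36, Nr3c1, Itih5, Mlxipl, Itgam and Pecam1 were not analysed here. Alternatives changed pseudocount, filter, scaling, variance model, weights and block, used voom, or left out a library. Promoter sequences are from RefSeq, build GRCr8.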

Additional observations from a re-analysis of the deposited data

How the results depend on the processing

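The estimate for Plin2 kept its sign in all 16 alternative fits, between -0.40 and -0.29, and passed in 7 of the 10 that kept every library. It missed the threshold at the same -0.34 without the level filter, without the variance trend and with a replicate block (limma adjusted p = 0.0564), and its values without 1 library ran from -0.37 to -0.29. The count over all genes was 92 without the filter, 112 without the variance trend and 685 with array weights. With the replicate block it was 105, and with voom on recovered reads 326. It was 159 without soft replicate 1 and from 26 to 54 without any other library. Of the set, 0 genes passed without the filter, without the variance trend, with the block and without any 1 library, and 2 with array weights, which added Fabp5 (0.29, adjusted p = 0.0355). Of the other listed lipid genes 0 passed without the filter, at equal FPKM sums, after quantile normalization and without the variance trend, 2 at a mean of at least 5 FPKM and with voom, 9 with array weights, and 0 to 2 without 1 library. No tested gene of the set changed sign in any of these fits. Deviations of same-numbered libraries correlated at 0.06, 0.12 and -0.08, and those of differently numbered libraries at -0.18 to 0.14. No pairing by number was seen, but 3 libraries per group cannot exclude it. Cd68, Cd53 and Adgre1 had adjusted p of 0.0680, 0.0573 and 0.0792 with the replicate block in limma. Depth limits Pparg, Scd and Adipoq most.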
